A study of Homo sapiens with 12 samples.

Results

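The genes described here are 10 components of the tight junction, the claudins CLDN1, CLDN2, CLDN3, CLDN4, CLDN7, CLDN12, CLDN15, and CLDN23, occludin (OCLN), and TJP1, which encodes ZO-1. They were chosen by name, and every probe whose RefSeq accession belongs to one of them was taken, which gave 15 probes of 41000 on the array and 10 genes of 17240 with a symbol. CLDN1, CLDN3, CLDN12, OCLN, and TJP1 are each measured by 2 probes, and the other 5 genes by 1 probe each.

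RNA from 2 human cell lines was hybridized to 12 dual-color oligonucleotide arrays on 5 slides to ask how knockdown of transcriptional cofactors changes gene expression in cells with active Wnt signaling. All cells had been transfected for 72 h with 15 nM siRNA. The Ls174T groups, a colorectal carcinoma line in which the Wnt pathway is always active, were si-control, si-b-catenin, si-MLLT10, si-BRG1, and si-P300. The HEK293T groups, an embryonic kidney line that carries the large T antigen and responds to added Wnt ligand, were si-control in control medium (CM), and, after Wnt3A, si-control together with si-DOT1L, si-MLLT10, si-P300, and si-BRG1, each medium given for 9 h. β-catenin is the transcriptional effector of the Wnt pathway, MLLT10 (AF10) is a partner of the histone methyltransferase DOT1L, BRG1 is the ATPase of the SWI/SNF remodeling complex, and P300 is a histone acetyltransferase. Knockdown in HEK293T cells was studied only together with Wnt3A, and all knockdowns were transient and partial. The si-b-catenin RNA was hybridized directly against Ls174T si-control RNA on 2 arrays with exchanged dyes, and because these carry one RNA they are treated as 1 replicate. Each of the other 10 RNAs was hybridized on 1 array against universal human reference RNA, a pool from several cell lines. No condition has a biological replicate, so no test was possible and no p-values are given. A value after ± is the error that the scanner program assigned to the spots, combined over the arrays, and does not contain the spread between cultures.

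Tight junctions seal the space between neighboring epithelial cells near the apical surface. Claudins are the membrane proteins that form the strands, and each type sets the barrier in its own way. CLDN1, CLDN3, CLDN4, and CLDN7 are mostly counted among sealing claudins, whereas CLDN2 and CLDN15 form pores for cations and are known from the intestine. Occludin is a second strand protein, and ZO-1 is the PDZ scaffold that ties claudins and occludin to actin. Epithelial cells express many claudins, and mesenchymal cells few.

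The promoters of CLDN4, CLDN7, and CLDN3 are shown because these 3 sealing claudins had the largest measured differences between the lines and because CLDN4 was also higher after β-catenin depletion. RefSeq promoter windows for assembly GRCh38.p14, each from 250 bases before to 50 bases after a transcript start, were used for 9 of the 10 genes. These gave 15 windows, and CLDN23 was left out of the search. Both strands were searched for the TCF letters, which are CTTTGTT and the variants of it whose ending is TA or AT or AA in place of TT, the core that the DNA-binding partners of β-catenin recognize, and for CAGGTG, an E-box of the kind that the repressors SNAI1 and ZEB1 bind and whose reverse complement is CACCTG. Capitals mark the matches, and the windows below run from 250 bases before the start to the base before it. CLDN4 lies at chr7:73830746-73830995 on the plus strand, CLDN7 (the second of its 2 windows) at chr17:7262479-7262728 on the minus strand, and CLDN3 at chr7:73770271-73770520 on the minus strand.
CLDN4: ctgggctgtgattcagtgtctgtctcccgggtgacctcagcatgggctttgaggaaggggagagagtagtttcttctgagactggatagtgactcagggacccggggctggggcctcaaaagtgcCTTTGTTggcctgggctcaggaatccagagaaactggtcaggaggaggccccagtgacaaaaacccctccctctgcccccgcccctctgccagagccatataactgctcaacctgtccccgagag
CLDN7: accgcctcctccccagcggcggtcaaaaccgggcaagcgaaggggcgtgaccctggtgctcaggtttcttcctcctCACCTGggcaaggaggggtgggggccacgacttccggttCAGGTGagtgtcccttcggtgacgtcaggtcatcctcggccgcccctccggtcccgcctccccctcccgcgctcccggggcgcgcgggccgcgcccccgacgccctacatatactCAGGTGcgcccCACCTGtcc
CLDN3: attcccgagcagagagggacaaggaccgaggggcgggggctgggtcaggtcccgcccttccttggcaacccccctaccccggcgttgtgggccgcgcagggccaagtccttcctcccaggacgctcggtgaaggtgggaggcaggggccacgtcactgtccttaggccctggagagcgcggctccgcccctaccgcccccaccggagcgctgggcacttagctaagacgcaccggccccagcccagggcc
The TCF letters occurred in CLDN4, at 125 to 119 bases before the start, and in 1 of 4 TJP1 windows, which makes 2 of 15 windows beside 13.8% of all 35116 windows. The E-box occurred in 5 of 15 windows of 4 genes (OCLN, CLDN3, TJP1, and CLDN7) beside 20.6% of all windows. The second CLDN7 window held 5 E-boxes, 4 of them before the start, and 0.635% of all windows held 3 or more. In CLDN3 the match lies after the start, at bases 37 to 42, so its printed window has none. CLDN3 and CLDN4 are next to each other among the protein-coding genes of chromosome 7. These matches describe letters only and show no binding.

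On the reference arrays 27717 to 31011 features were well-measured, meaning that either channel exceeded 2 times the local background, and on the β-catenin pair 23077 and 18104. The siRNA targets were lower where targeted. CTNNB1 fell by 2.70 and 2.49 on the log2 scale (2 probes). MLLT10 fell by 1.42 in Ls174T and 1.76 in HEK293T cells with 1 probe, and its other probe was not well-measured in either comparison. SMARCA4, the gene of BRG1, was at -2.24 or lower in Ls174T and at -3.95 or lower in HEK293T cells with each of 3 probes. DOT1L was lower by 2 of its 3 probes, with log2 changes of -1.41, -1.97, and 0.17. EP300 had log2 changes of -0.60 and -1.31 in Ls174T and of -2.35 and -2.98 in HEK293T cells, and its signal after knockdown was not well above background with both probes in Ls174T cells and with 1 probe in HEK293T cells.

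Among the 10 genes, the largest differences between the lines belonged to claudins of epithelial barriers. CLDN3, CLDN7, CLDN4, CLDN1, and CLDN23 were all higher in Ls174T than in HEK293T cells, CLDN2 was well above background in Ls174T si-control cells and not in HEK293T cells in control medium, occludin was about 2.01-fold higher, and no probe of CLDN12, CLDN15, or TJP1 was higher in Ls174T cells by 2-fold. The arrays measured RNA of whole cultures, so fewer expressing cells and less RNA per cell cannot be told apart. Among the 13 well-measured probes, 8 passed 2-fold between the si-control arrays (HEK293T in control medium), where 32.9% of all well-measured probes did. Of these 8, 7 were higher in Ls174T cells, beside 42.5% of all probes past 2-fold. Set against all well-measured probes, 7 of 13 were higher by 2-fold, beside 14.0%. The median over the 13 probes was 1.01 on the log2 scale, and over all 25557 probes it was -0.03.

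The ratio of sample to reference RNA is given on the log2 scale for each array. CLDN3, a sealing claudin, read 1.65 (si-control), 1.57 (si-MLLT10), 1.80 (si-BRG1), and 1.44 (si-P300) in Ls174T cells by probe A_23_P71017, and from -6.05 to -4.82 with a median of -5.48 on the 6 HEK293T arrays. The difference between the si-control arrays was 7.18 ± 0.62, or 145-fold, but the HEK293T signal was only 2.44 to 2.91 times background. The second CLDN3 probe, A_24_P35109, gave a smaller difference of 1.91 ± 0.32, or 3.75-fold, with HEK293T signal at 3.65 to 5.25 times background. The probes thus disagreed on the size and not on the direction, and no array of one line overlapped the other with either probe. The share of all probes without such overlap was not counted. Lack of overlap, here and for the genes below, therefore does not set these genes apart from other probes.

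CLDN7, a claudin also found along the lateral membrane, read 3.35, 3.19, 2.71, and 2.87 on the Ls174T arrays in the same order, and from -3.16 to -1.78 with a median of -2.19 on the HEK293T arrays. The lines differed by 5.52 ± 0.47, or 45.8-fold. CLDN4, which seals against cations, read 2.27, 2.38, 2.20, and 1.96 in Ls174T cells and from -3.92 to -2.10 with a median of -2.79 in HEK293T cells, a difference of 4.82 ± 0.44, or 28.3-fold. CLDN4 was well above background on only 3 of 6 HEK293T arrays, at 1.37 to 1.73 times the local background over the 6, so the HEK293T level is close to the limit of detection. Neither gene overlapped between the lines. With normexp, another background correction, the CLDN4 difference was 3.14 and that of CLDN7 5.16.

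CLDN1, needed for the barrier of the skin, read 0.95, 0.79, 1.57, and 1.22 in Ls174T cells and from -2.57 to -1.81 in HEK293T cells by A_23_P57784. The si-control arrays differed by 3.52 ± 0.39, or 11.5-fold, and by 2.51 with normexp. By the second probe CLDN1 was not well above background on any HEK293T array, and the Ls174T si-control level was at least 11.9-fold higher. Such a bound sets the brighter group's mean against the lowest signal among probes well above background, or the dim probe's own signal where that is higher. It holds only for these signals, which were scaled between arrays, and another scaling or background correction can give a smaller change. CLDN23 read 0.72, 1.12, 1.43, and 1.54 in Ls174T cells and from -1.17 to -0.31 in HEK293T cells, and the si-control arrays differed by 1.89 ± 0.36, or 3.70-fold, and by 1.07 with normexp. The CLDN1 and CLDN23 arrays of the lines did not overlap either.

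The pore-forming claudins behaved differently from each other. CLDN2 was well above background on all 4 Ls174T arrays and on 1 of 6 HEK293T arrays (si-control Wnt3A). By the scaled signals, its bound was 11.2-fold higher in Ls174T si-control cells than in HEK293T cells in control medium. Its signal was 2.39 times background in Ls174T si-control cells, 1.71 times in HEK293T control medium, and 1.52 times with Wnt3A. The processed signals before this scaling were 106, 10.9, and 37.7 in the same order, so the size of the difference is uncertain. No log2 difference was calculated because CLDN2 was well-measured on 0 of 6 HEK293T arrays. CLDN15 was well above background on all 10 arrays and read 0.33, 0.30, 0.42, and 0.39 in Ls174T and from 0.64 to 1.33 in HEK293T cells, a difference of -0.44 ± 0.33 between the si-control arrays. CLDN12, which lacks the PDZ-binding end of most claudins, had differences of -0.80 ± 0.30 (A_23_P157268) and -0.00 ± 0.44 (A_23_P412515) with its 2 probes. CLDN15 and CLDN12 by A_23_P157268 also did not overlap between the lines, and both were lower in Ls174T cells.

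Occludin was moderately higher in Ls174T cells, by 1.01 ± 0.35 with A_23_P92672 and 0.93 ± 0.40 with A_24_P102053. Its levels were 1.88 to 2.27 in Ls174T and 0.74 to 1.62 in HEK293T cells with the first probe, and 2.21 to 2.59 and 1.21 to 1.98 with the second, without overlap. TJP1 was lower in Ls174T cells by one probe, A_24_P193435, with -1.41 ± 0.31, and not by the other, A_23_P205828, with 0.17 ± 0.29. Levels with A_24_P193435 were -1.13 to -0.86 in Ls174T and -0.10 to 0.32 in HEK293T cells, whereas with A_23_P205828 the lines overlapped.

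**Figure D1:**
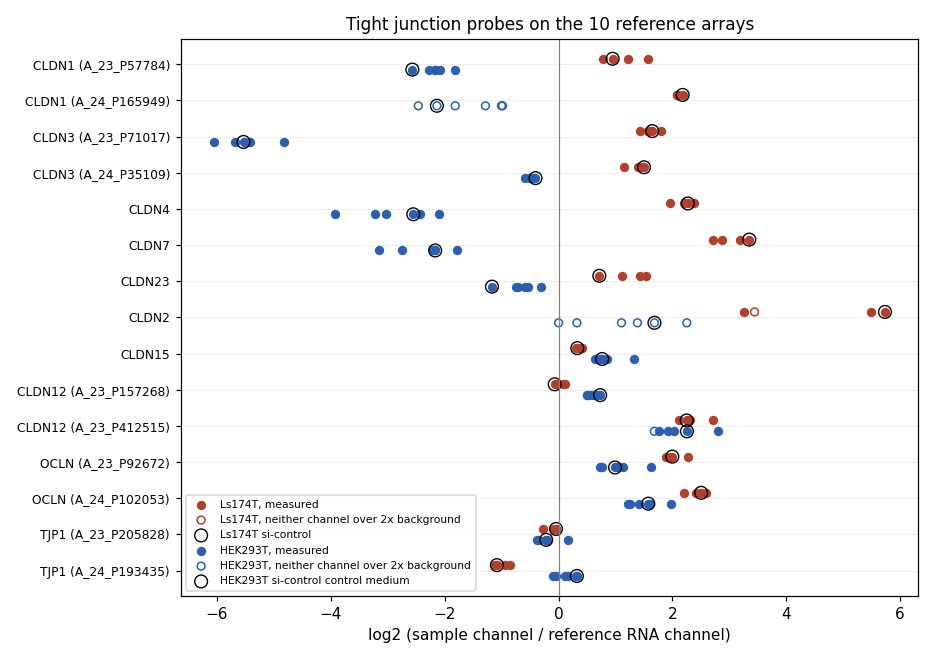
Log2 ratio of sample to reference RNA (x axis) for the 15 probes (y axis) on the 10 reference arrays. Red points are the 4 Ls174T arrays, blue points the 6 HEK293T arrays, open points arrays where neither channel exceeded 2 times background, and black rings the si-control arrays. The lines overlap with CLDN12 by A_23_P412515 and TJP1 by A_23_P205828 and with no other probe shown. CLDN15, CLDN12 by A_23_P157268, and TJP1 by A_24_P193435 are lower in Ls174T cells. The share of all probes without overlap was not counted.

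The labels of the lines were checked by other genes. Of 17 probes for 12 intestinal epithelial genes, 17 were well above background in Ls174T si-control cells and 13 in HEK293T cells. 11 were well-measured in both, and 10 were higher and 0 lower in Ls174T cells, with a median of 3.59 on the log2 scale. EPCAM was higher by 7.67 ± 0.62, and CDX2, an intestinal transcription factor, by 0.44 ± 0.62. Of 11 probes for mesenchymal or embryonic kidney genes, 5 were well above background in Ls174T and 9 in HEK293T cells, and of 8 well-measured 1 was higher and 5 were lower in Ls174T cells. Vimentin (VIM) was lower, with -7.18 ± 0.83 and -5.94 ± 0.68, and PAX8, a kidney transcription factor, was higher with 2.86 ± 0.38. Differences between lines cannot be told apart from the different tissues and culture histories of the lines.

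The 2 si-control arrays also lie on different slides, and 2 HEK293T arrays, si-BRG1 and si-P300 after Wnt3A, share the slide of Ls174T si-control. Against these the differences of CLDN3 (A_23_P71017) were 7.69 and 7.32, of CLDN7 6.51 and 6.10, of CLDN4 6.19 and 5.30, of CLDN1 3.23 and 3.12, of CLDN23 1.26 and 1.03, and of TJP1 (A_24_P193435) -1.38 and -0.99. All were in the direction found between the si-control arrays. CLDN4 was not well above background on these 2 HEK293T arrays, at 1.38 and 1.37 times background, so the size of its differences is uncertain. Occludin (A_23_P92672) was at 0.38 and 0.87 within the slide, below 2-fold with both, and CLDN15 was at -0.39 against si-P300 and just past 2-fold lower against si-BRG1. These 2 arrays carry knockdown and Wnt3A as well.

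**Figure D2:**
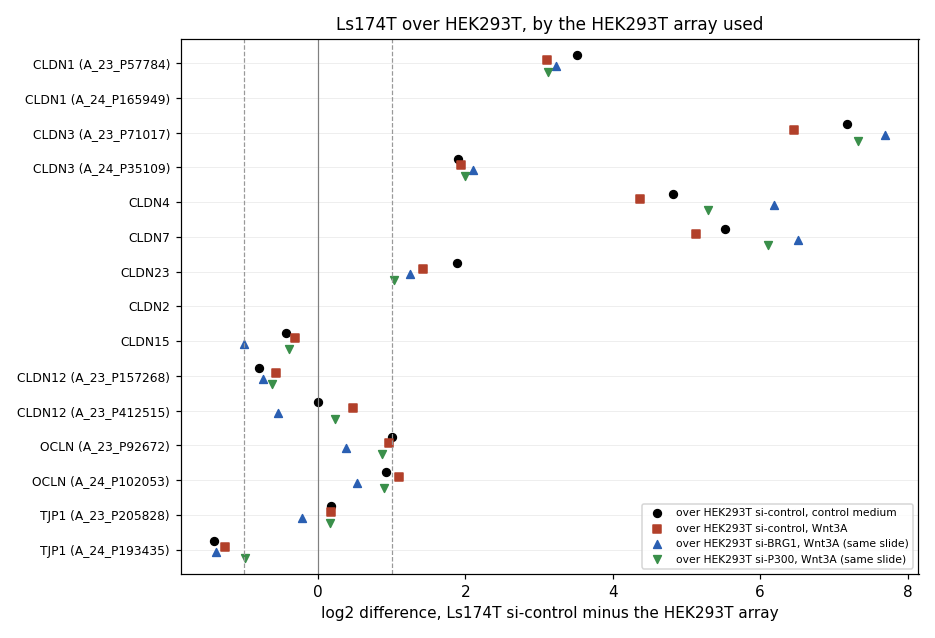
Log2 difference of Ls174T si-control minus a HEK293T array (x axis) for each well-measured probe (y axis), with each of 4 HEK293T arrays as the control. Dashed lines mark 2-fold, and no point is drawn for CLDN2 and CLDN1 by A_24_P165949, which were not well-measured. CLDN3, CLDN4, CLDN7, CLDN1, and CLDN23 lie above 2-fold with all 4 arrays, and occludin lies near or below it. CLDN4 was not well above background on the HEK293T si-BRG1 and si-P300 arrays.

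Among 40 other tight junction genes, 38 had probes (62 in all). In the line comparison 45 were well-measured, with 10 higher and 11 lower in Ls174T cells, a share of 46.7% beside 32.9% of all probes. CLDN14 was higher by 3.90 ± 0.43 and MARVELD3, a relative of occludin, by 3.62 ± 0.50. JAM3, a junctional adhesion molecule, was lower in Ls174T cells, with -4.06 ± 0.41 and -3.23 ± 0.38. The median over the 45 probes was -0.09, beside 1.01 over the 13 described above.

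In Ls174T cells depleted of β-catenin, CLDN4 and CLDN23 were higher and no claudin with a usable ratio was lower by 2-fold. Of the 15 probes 10 were well-measured on both arrays of the pair, and 2 passed 2-fold, where 5.66% of all well-measured probes did. Of all probes past 2-fold, 79.2% were higher. 9 of the 10 changes were above 0, with a median of 0.34 on the log2 scale and of -0.02 over all 16513 probes. CLDN4 was at 1.33 and 1.24 on the 2 arrays, a mean of 1.29 ± 0.17, or 2.44-fold higher.

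CLDN23 was at 1.60 and 2.29, a mean of 1.94 ± 0.33, or 3.85-fold. Its si-control channel was well above background on 1 of 2 arrays, and with normexp the mean was 0.75, below 2-fold. The remaining sealing claudins changed less. CLDN3 was at 0.58 ± 0.15 and 0.26 ± 0.15 with its 2 probes, CLDN7 at 0.49 ± 0.15, and CLDN1 at -0.13 ± 0.15. CLDN12 was at 0.27 ± 0.18. The CLDN3 values on the 2 arrays were 0.41 and 0.75 by A_23_P71017, a spread between dye orientations of the same RNA.

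Occludin was at 0.23 ± 0.22 by A_24_P102053, and its other probe was not well-measured on the second array. TJP1 was at 0.40 ± 0.15 and 0.23 ± 0.15, with array values of 0.29 and 0.52 by A_23_P205828 and of 0.46 and 0.01 by A_24_P193435. CLDN2 was lower on the first array, at -2.53 ± 0.72, and was not well-measured on the second, at -0.67 ± 0.43. On the second array its signal was 1.76 times background in the depleted channel and 1.78 times in the si-control channel. It was well above background in the si-control channel on both arrays and in the depleted channel on neither. The bound over the pair was 1.60-fold lower after depletion. CLDN15 was not well-measured on either array.

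Of the other tight junction probes 32 were well-measured on the pair, and 0 were higher and 2 lower, a share of 6.25% beside 5.66% of all probes. Both lower probes belong to PALS1, a scaffold of the apical Crumbs polarity complex, with -1.51 ± 0.18 and -1.46 ± 0.20. The median over the 32 was 0.03.

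Knockdown of MLLT10, BRG1, or P300 left most tight junction genes of Ls174T cells within 2-fold of si-control. The 3 comparisons share the si-control array, so an error of that array enters all of them. After si-MLLT10, which shares the slide with si-control, 0 of 15 well-measured probes passed 2-fold, where 1.75% of all probes did. The changes ranged from -0.24 ± 0.90 for CLDN2 to 0.46 ± 0.47 for CLDN12 (A_23_P412515), with a median of -0.08 beside -0.01 over all probes. CLDN23 was at 0.40 ± 0.34, and CLDN4 at 0.11 ± 0.42.

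After si-BRG1, 1 of 15 probes passed 2-fold, where 5.21% of all probes did. This was CLDN2, at -2.47 ± 0.79. The reference channel of CLDN2 was not well above background on any Ls174T array, and the sample channel alone, scaled to its 75th percentile, gave -0.41, so the call rests on the reference channel. CLDN2 signal in the sample was 2.39 times background with si-control and 2.33 times with si-BRG1. CLDN23 was at 0.72 ± 0.34, CLDN1 (A_23_P57784) at 0.62 ± 0.33, and CLDN7 at -0.65 ± 0.49, all within 2-fold.

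After si-P300, 0 of 14 well-measured probes passed 2-fold, where 5.76% of all probes did. CLDN23 was at 0.82 ± 0.35 and CLDN7 at -0.48 ± 0.50, in the same direction as after si-BRG1. Both arrays lie on another slide than si-control, and slide and knockdown cannot be told apart there. Set against each other on their own slide, si-BRG1 and si-P300 differed by -0.11 for CLDN23, by -0.16 for CLDN7, and by at most 0.38 for any well-measured probe, reached by occludin (A_24_P102053). CLDN23 was lowest in si-control on the 4 reference arrays, and was higher with si-b-catenin on the direct pair too.

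**Figure D3:**
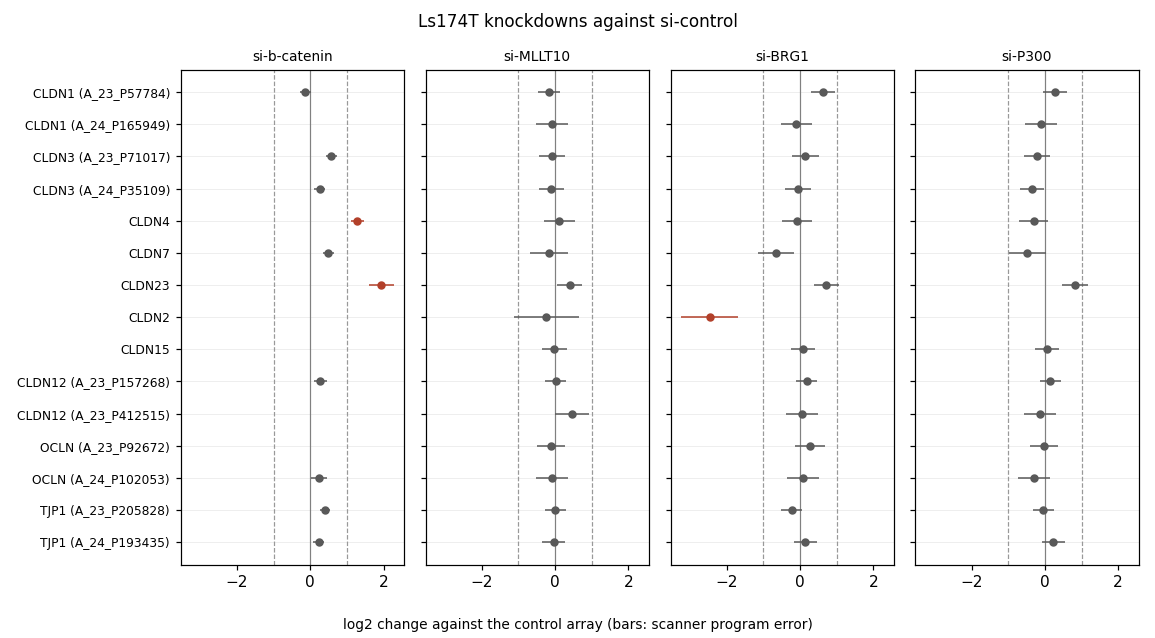
Log2 change against si-control (x axis) for each well-measured probe (y axis) after each of 4 knockdowns in Ls174T cells. Bars are the scanner program's error, dashed lines mark 2-fold, and red points passed it. CLDN4 and CLDN23 pass after si-b-catenin, CLDN2 after si-BRG1, and no probe after si-MLLT10 or si-P300.

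The other tight junction probes were also mostly within 2-fold in these comparisons. Of 49 well-measured after si-MLLT10 0 were higher and 1 lower, of 50 after si-BRG1 3 were higher and 2 lower, and of 50 after si-P300 0 were higher and 1 lower. The shares past 2-fold were 2.04%, 10%, and 2%, beside 1.75%, 5.21%, and 5.76% of all probes. CLDN14 was at -1.21 ± 0.30 and PATJ, a Crumbs complex scaffold, at -1.14 ± 0.40 after si-BRG1. CGNL1 (paracingulin), a junction plaque protein, was at -1.10 ± 0.35 after si-P300.

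In HEK293T cells Wnt3A changed few tight junction probes past 1.5-fold. Of 13 well-measured, 1 passed, where 6.54% of all probes did. This was CLDN3 by A_23_P71017, higher by 0.71 ± 0.76, an error larger than the change, and the other CLDN3 probe was at -0.04 ± 0.30. CLDN23 was at 0.46 ± 0.36, CLDN4 at 0.45 ± 0.44, CLDN1 at 0.41 ± 0.43, and CLDN7 at 0.39 ± 0.39. CLDN12 was at -0.23 ± 0.30 and -0.49 ± 0.42, CLDN15 at -0.13 ± 0.31, occludin at 0.04 ± 0.32 and -0.17 ± 0.36, and TJP1 at -0.00 ± 0.29 and -0.15 ± 0.29. The median was -0.00, and -0.01 over all probes. With the sample channel alone 6 of the 13 probes passed, where 20.1% of all probes did. The Wnt3A si-control array has a slide of its own, so slide and Wnt3A cannot be told apart.

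This array is also the control of all 4 HEK293T knockdowns, and it held the highest of the 6 levels for CLDN3 (A_23_P71017), CLDN4, and CLDN7. CLDN7 read -2.17 in control medium, -1.78 with Wnt3A, -2.17 with si-MLLT10, -2.20 with si-DOT1L, -3.16 with si-BRG1, and -2.75 with si-P300. CLDN4 read -2.55, -2.10, -3.23, -2.43, -3.92, and -3.03 in the same order, and CLDN3 -5.53, -4.82, -5.43, -5.42, -6.05, and -5.68. For each of the 3 genes the si-BRG1 array was the lowest.

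After si-MLLT10, 2 of 12 well-measured probes passed 1.5-fold, both lower, where 7.32% of all probes did in either direction. CLDN4 was at -1.14 ± 0.48. It was not well above background after the knockdown, and its bound was 1.39-fold lower, which was not reached with normexp. CLDN3 was at -0.61 ± 0.75 by A_23_P71017 and 0.02 ± 0.30 by the other probe. After si-DOT1L, 1 of 13 passed, where 5.62% of all probes did. It was the same CLDN3 probe, at -0.60 ± 0.75. CLDN7 was at -0.39 ± 0.39 and -0.42 ± 0.39 with these knockdowns. With normexp no probe passed after either knockdown, and CLDN4 after si-MLLT10 was at -0.05.

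Both knockdowns share a slide with the control medium array. Against that array CLDN3 (A_23_P71017) was at 0.10 with si-MLLT10 and 0.12 with si-DOT1L, CLDN7 at -0.01 and -0.03, CLDN4 at -0.68 and 0.12, CLDN1 at 0.48 and 0.75, and CLDN23 at 0.42 and 0.58. The lower CLDN3 values against the Wnt3A array were therefore not seen against the array of the same slide, which differs in medium. The part of the slide in the result was not tested.

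After si-BRG1 the HEK293T cells had the largest number of tight junction changes of the 4 knockdowns. Of 13 well-measured probes 6 passed 1.5-fold, 3 higher and 3 lower, where 22.0% of all probes did, the highest share among the HEK293T comparisons. The sealing claudins CLDN4, CLDN7, and CLDN3 were lower. CLDN4 was at -1.82 ± 0.53. It was not well above background after the knockdown, and its bound was 1.79-fold lower, which was not reached with normexp. CLDN7 was at -1.38 ± 0.44, or 2.60-fold lower, and CLDN3 at -1.23 ± 0.79 by A_23_P71017 beside -0.15 ± 0.30 by the other probe.

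CLDN12 was at 1.03 ± 0.45 by A_23_P412515 and 0.19 ± 0.30 by A_23_P157268, CLDN15 at 0.69 ± 0.32, and occludin at 0.59 ± 0.34 and 0.57 ± 0.37, the first just past 1.5-fold and the second just inside it. The occludin probes gave the same size. For CLDN15 the sample channel alone gave -0.25, so its direction depends on the reference channel. TJP1 was at 0.39 ± 0.29 and 0.13 ± 0.29, and CLDN23 at 0.17 ± 0.34. With normexp CLDN4 was at -0.52 and CLDN15 at 0.33, both within 1.5-fold, while CLDN7 was at -0.88, CLDN3 at -1.05, CLDN12 at 0.69, and occludin at 0.63.

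After si-P300, 3 of 13 probes passed 1.5-fold, all lower, where 12.1% of all probes did. They were CLDN7 at -0.97 ± 0.42, CLDN4 at -0.93 ± 0.47, and CLDN3 at -0.86 ± 0.77 by A_23_P71017, the same 3 genes that were lower after si-BRG1, in comparisons that share the control array. CLDN4 was not well above background after si-P300, and its bound was 1.49-fold lower, which was not reached with normexp. The other CLDN3 probe was at -0.05 ± 0.30. With normexp CLDN7 and CLDN3 still passed, at -0.68 and -0.66, and CLDN4 did not, at -0.35.

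The si-BRG1 and si-P300 arrays share a slide that holds no HEK293T control. Set against each other, si-BRG1 was at -0.41 for CLDN7, -0.37 for CLDN3, 0.78 for CLDN12 (A_23_P412515), 0.61 for CLDN15, 0.49 and 0.37 for occludin, and 0.38 and 0.40 for TJP1. Against the control medium array, on another slide, CLDN7 was at -0.99 with si-BRG1 and -0.58 with si-P300, CLDN4 at -1.37 and -0.48 with signal not well above background after either knockdown, and CLDN3 (A_23_P71017) at -0.51 and -0.14. CLDN12 (A_23_P412515) was at 0.54 ± 0.45 and CLDN15 at 0.57 ± 0.33 with si-BRG1, in the same direction and just inside 1.5-fold. Occludin (A_23_P92672) was at 0.62 ± 0.34, just past it. CLDN3 with si-BRG1 also kept its direction and stayed inside 1.5-fold. None of the 3 si-P300 calls passed 1.5-fold against control medium, though CLDN7 was lower there too and lay just inside the cut. CLDN23 passed there with both knockdowns, at 0.63 and 0.86. Slide and knockdown cannot be told apart in either comparison with a control.

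**Figure D4:**
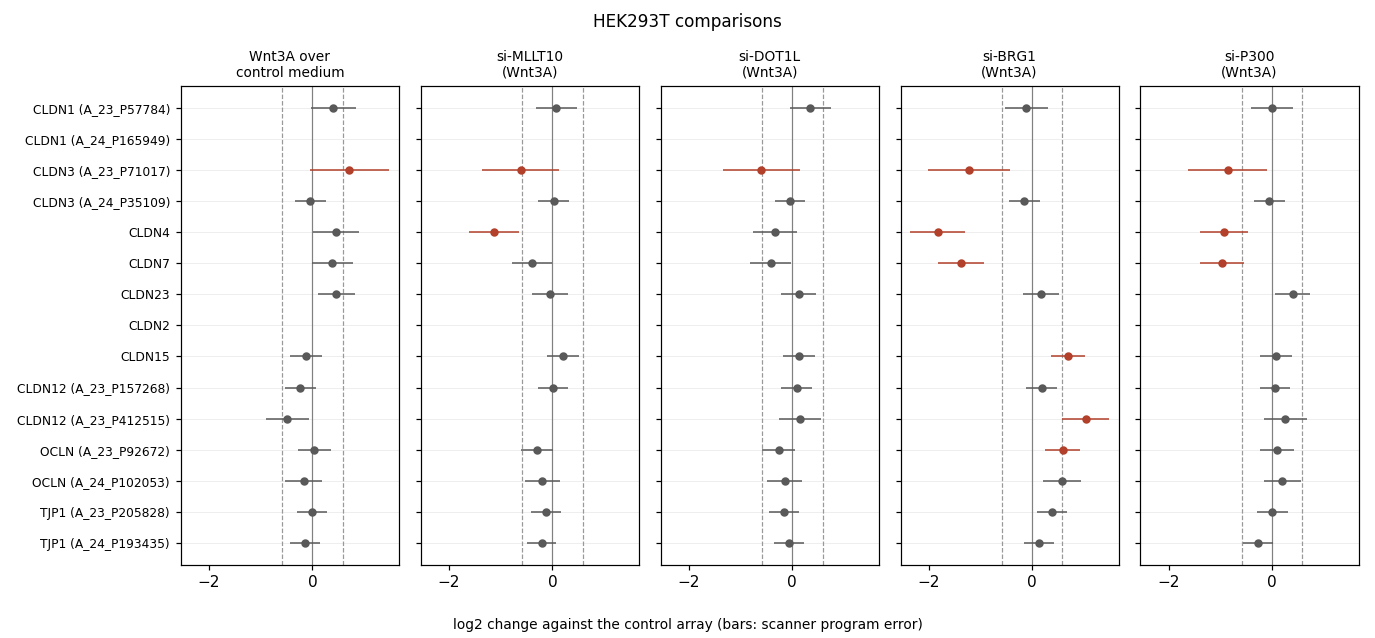
Log2 change (x axis) for each well-measured probe (y axis) with Wnt3A against control medium and with each knockdown against si-control, both after Wnt3A. Bars are the scanner program's error, dashed lines mark 1.5-fold, and red points passed it. CLDN4 passes after si-MLLT10, si-BRG1, and si-P300, CLDN7 after si-BRG1 and si-P300, and CLDN3 passes by A_23_P71017 in all 5 panels and by A_24_P35109 in none.

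Of the other tight junction probes 47 were well-measured with Wnt3A, with 0 higher and 4 lower, a share of 8.51% beside 6.54% of all probes. CLDN5, known from endothelium, was at -0.68 ± 0.33, PRKCI, the atypical protein kinase C of the polarity complex, at -0.64 ± 0.30 and -0.60 ± 0.30, and MAGI2, a junction scaffold, at -0.63 ± 0.31. After si-MLLT10, 2 of 47 were higher and 1 lower, a share of 6.38% beside 7.32% of all probes. PATJ was at 0.78 ± 0.37 and cingulin (CGN) at 0.72 ± 0.38. After si-DOT1L, 0 of 48 were higher and 1 lower, a share of 2.08% beside 5.62% of all probes. The lower probe was CLDN6, a claudin of embryonic epithelia, at -0.63 ± 0.33.

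After si-BRG1, 5 of 45 were higher and 4 lower, a share of 20.0% beside 22.0% of all probes. MAGI2 was at 1.02 ± 0.31, CGN at 0.97 ± 0.39, PATJ at 0.89 ± 0.37, and PARD6G, a polarity adaptor, at -0.89 ± 0.30. After si-P300, 0 of 45 were higher and 3 lower, a share of 6.67% beside 12.1% of all probes. CGNL1 was at -0.97 ± 0.34 and CLDN6 at -0.75 ± 0.33. MAGI2 thus read lower with Wnt3A and higher with si-BRG1, in comparisons that use the same Wnt3A array.

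Over all 10 comparisons 24 of 131 well-measured changes passed the fold. Of all probes 32.9% passed it between the lines, and 1.75% to 22.0% in the other comparisons. Of the 24, 17 were larger than 2 times the program error. These include 8 of 8 between the lines, 3 of 3 in the Ls174T knockdowns, and 6 of 13 in HEK293T cells. Among the 17, CLDN23 after si-b-catenin and CLDN2 after si-BRG1 in Ls174T cells did not pass the fold with normexp. Nor did CLDN4 after si-MLLT10, or CLDN4 and CLDN15 after si-BRG1, in HEK293T cells. Across the 4 Ls174T reference arrays the median range of the 14 well-measured probes was 0.37, beside 0.38 over 25151 probes. Across the 6 HEK293T arrays it was 0.76 over 12 probes, beside 0.54 over 25056 probes. The widest HEK293T ranges belonged to CLDN4 with 1.82, CLDN7 with 1.38, and CLDN3 (A_23_P71017) with 1.23, and 2.61%, 6.25%, and 8.66% of all probes had wider ones. These 3 genes had HEK293T signals of 1.37 to 1.73, 2.11 to 3.60, and 2.44 to 2.91 times background. CLDN3 by its other probe, A_24_P35109, had a range of 0.19.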

How the data were processed

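Total RNA of each cell line was labeled and hybridized by the authors to Agilent 4x44K whole human genome arrays, which were read with Feature Extraction (version 10.5.1.1 in the file headers). The deposited intensities are background-subtracted and dye-normalized per channel, and the deposited log10 ratios are red over green with the program's error. The deposited table of values holds the same log10 ratios, with 1 array of the pair turned. According to the methods all arrays carried reference RNA, but for the β-catenin pair the labels name si-control RNA in the second channel, and the labels were used.

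Log10 ratios were turned to sample over reference, or depleted over control, converted to log2, averaged over the spots of a probe, and subtracted between arrays. Features marked as outliers were left out, and either channel had to exceed 2 times local background on every array compared. Thresholds were 2-fold in Ls174T cells and between lines, and 1.5-fold in HEK293T cells. Symbols came from RefSeq accessions, of which 25398 of 26816 (94.7%) matched. Gene coordinates were not used apart from the promoter windows, since the arrays were annotated on another build. Sequences are RefSeq's, assembly GRCh38.p14. All probes of the 10 genes are described, and of the other tight junction genes at most the 4 largest changes per comparison that passed the fold with sample signal well above background on every array. The genes, lists, and motifs were chosen with earlier results of these data known. Alternatives were normexp background correction (offset 50) with loess in limma 3.58.1 (R 4.3.3), the sample channel alone scaled to the 75th percentile, median centering, both channels above background, another fold, the deposited table, and other control arrays. Steps were tested on simulated data in Python 3.11.15 with pandas 2.3.3. The small number of arrays sets the precision.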

Additional observations from a re-analysis of the deposited data

How the results depend on the processing

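Of the 24 changes past the fold, 15 also passed with normexp and loess, 18 with the sample channel alone, 23 with median centering, and 24 with the deposited table. Where both channels had to be above background, 16 of the 24 could be measured and 16 passed. All 24 kept their sign in these settings except CLDN15 after si-BRG1 in HEK293T cells, at -0.25 with the sample channel alone.

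With normexp and loess the number of probes past the fold was 1 after si-b-catenin (3.58% of all probes), and 0 after si-BRG1 in Ls174T cells (0.570%) and after si-MLLT10 (1.59%) and si-DOT1L (1.23%) in HEK293T cells. With the sample channel alone it was 1 after si-P300 in Ls174T cells (10.6% of all probes) and, in HEK293T cells, 6 with Wnt3A (20.1%), 1 after si-MLLT10 (17.3%), 2 after si-DOT1L (15.5%), and 5 after si-P300 (23.2%). With both channels it was 1 after si-b-catenin (4.22%), 0 after si-BRG1 in Ls174T cells (0.829%), and 1 after si-MLLT10 in HEK293T cells (2.98%). With 1.5-fold in Ls174T cells it was 4 after si-BRG1 (12.6%) and 1 after si-P300 (14.9%), and with 2-fold in HEK293T cells 0 with Wnt3A (1.71%), 1 after si-MLLT10 (2.36%), 0 after si-DOT1L (1.97%), and 0 after si-P300 (3.97%). After si-b-catenin the number stayed the same with 1.5-fold, where 17.3% of all probes passed. After si-BRG1 in HEK293T cells, 2 probes were higher and 2 lower with normexp and loess (13.8% of all probes). The sample channel alone gave 3 higher and 4 lower there (37.1%), and median centering 2 higher and 3 lower (22.0%). After si-P300 in HEK293T cells, 2 were lower with normexp and loess (4.19%). The cause was not tested. With 1 array of the pair left out the number after si-b-catenin was 2 to 3, the third being CLDN2 on the first array.

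The sample channel alone and median centering each moved the median of all probes by up to 0.14 on the log2 scale. With Wnt3A the sample channel alone put 81.8% of all changes past the fold on the higher side, beside 57.6% with the ratio, and in the 4 HEK293T knockdowns 13.5% to 29.2%, beside 34.6% to 47.9%. Of 8 line differences, 7 passed with the HEK293T Wnt3A array as the control, and 7 and 6 with the si-BRG1 and si-P300 arrays of the same slide, chosen after seeing the data. Slide as a block was not run, since each condition has 1 array. No paired analysis was possible because each condition has 1 biological sample.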
